A study of Mus musculus with 8 samples.

Results

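Macrophage marker genes were followed in RNA-seq libraries of mouse skeletal myogenic cells: Ptprc, Lyz2, Cd68, Csf1r, Adgre1, C1qa, C1qb, C1qc, Tyrobp and Fcer1g. They were taken by name and are 10 of the 24980 gene symbols in the count table, and all 10 were measured in each library. The 8 libraries fall into 4 groups of 2 biological replicates. TF cells were freshly sorted teratoma-derived progenitors. They came from 4-week teratomas that E14 embryonic stem cells carrying EGFP formed in irradiated, cardiotoxin-injured tibialis anterior muscle of NSG-mdx4Cv mice, and they were gated as EGFP+, negative for the lineage markers CD31 and CD45, and positive for α7-integrin and VCAM-1. TE cells were such progenitors after expansion in culture to passage 8. SF cells were satellite cells freshly isolated from adult muscle, and SE cells were satellite cells expanded to passage 8. The sort gate and the donor strain of the satellite cells are not given in the sources used here. NSG mice lack lymphocytes but keep macrophages of their own. Replicates are named by group and number, so TF1 is TF replicate 1.

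Macrophages are phagocytes of the tissue. Their survival depends on the receptor encoded by Csf1r, they take up and digest particles in lysosomes that hold lysozyme and CD68, and they secrete the complement component C1q. Tyrobp (DAP12) and Fcer1g (the Fc receptor γ chain) are short membrane adaptors that carry signals from many myeloid receptors to the kinase Syk, and Ptprc encodes CD45, a phosphatase on nearly all leukocytes and the protein that the TF sort selected against. In injured muscle, macrophages clear debris and act on the satellite cells that regenerate the fibers.

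Many myeloid promoters carry sites for PU.1, the factor encoded by Spi1, whose sites hold the letters AGGAAGT or a close variant. The stretches below are shown because they hold those letters upstream of 4 of the markers. Of the 10 markers, 6 (Ptprc, Lyz2, Cd68, C1qb, C1qc and Fcer1g) had a promoter in the RefSeq table for GRCm38.p6, and the letters were searched on both strands of the 250 bases before each start site. They occurred for 4 of these 6, against 7.69% of 32851 promoter windows of the same length. The letters were chosen after these promoters had been seen. A shorter form, GGAAGT, which the longer contains, occurred for 4 of 6 against 19.7%, and a longer form, GAGGAAGT, for 1 of 6 (C1qc) against 2.44%. Each line is read 5′ to 3′ on the strand of the gene, with the match in capitals, and ACTTCCT is the same motif on the other strand. Both Ptprc stretches lie before the more upstream of its listed start sites.
Ptprc, chr1:138175386-138175444, minus strand: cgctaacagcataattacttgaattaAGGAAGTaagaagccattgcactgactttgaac
Ptprc, chr1:138175331-138175389, minus strand: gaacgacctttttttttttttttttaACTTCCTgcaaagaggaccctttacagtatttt
C1qb, chr4:136886221-136886279, minus strand: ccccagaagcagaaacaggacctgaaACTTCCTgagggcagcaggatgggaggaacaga
C1qc, chr4:136893077-136893135, minus strand: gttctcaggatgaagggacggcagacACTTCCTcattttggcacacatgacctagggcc
Lyz2, chr10:117282340-117282398, minus strand: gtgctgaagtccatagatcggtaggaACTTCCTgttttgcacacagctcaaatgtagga
The matches began 113 and 58 bases before the start site of Ptprc, 53 before that of C1qb, 195 before that of C1qc and 100 before that of Lyz2. A match is a run of letters and not a measured binding site. Spi1 itself was counted 108 and 14 times in TF1 and TF2, 0 and 2 times in SF, 0 and 2 times in TE and 0 times in both SE libraries.

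The libraries held between 11930961 and 21146632 estimated counts, with 7.99% to 21.3% of them from Rn45s, the precursor of ribosomal RNA. Counts were divided by median-ratio size factors to give normalized counts, on which 3 counts, taken as the limit of detection, corresponded to between 2.15 and 3.89. The markers of the sorted cells were present in each library, with at least 1368 counts of Pax7, 1813 of Itga7 and 775 of Vcam1. SF1 had a count for 22153 genes, and the other 7 libraries for 15416 to 17967. TF1 stood apart from TF2 for the macrophage markers, as described next, and also for transcripts of other cells. Xist, named here after its values had been seen, had 200.2 normalized counts in TF1, 20.5 in TF2, 186.7 and 152.9 in SF, and at most 10.02 in the cultured libraries.

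All 10 markers were highest in TF1. Their summed counts, scaled to the library total as CPM, came to 527.9 CPM in TF1 and 58.6 in TF2, against 27.7 and 26.0 in SF, 0.8 and 2.2 in TE, and 1.9 and 6.7 in SE. The fresh libraries therefore held all 10 transcripts, and the cultured ones few of them, Cd68 above all. Of the 40 marker values in the 4 cultured libraries, 30 were exactly 0, and 7 exceeded 3 counts. In such bulk libraries, fewer macrophages and less RNA per macrophage cannot be told apart.

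**Figure D1:**
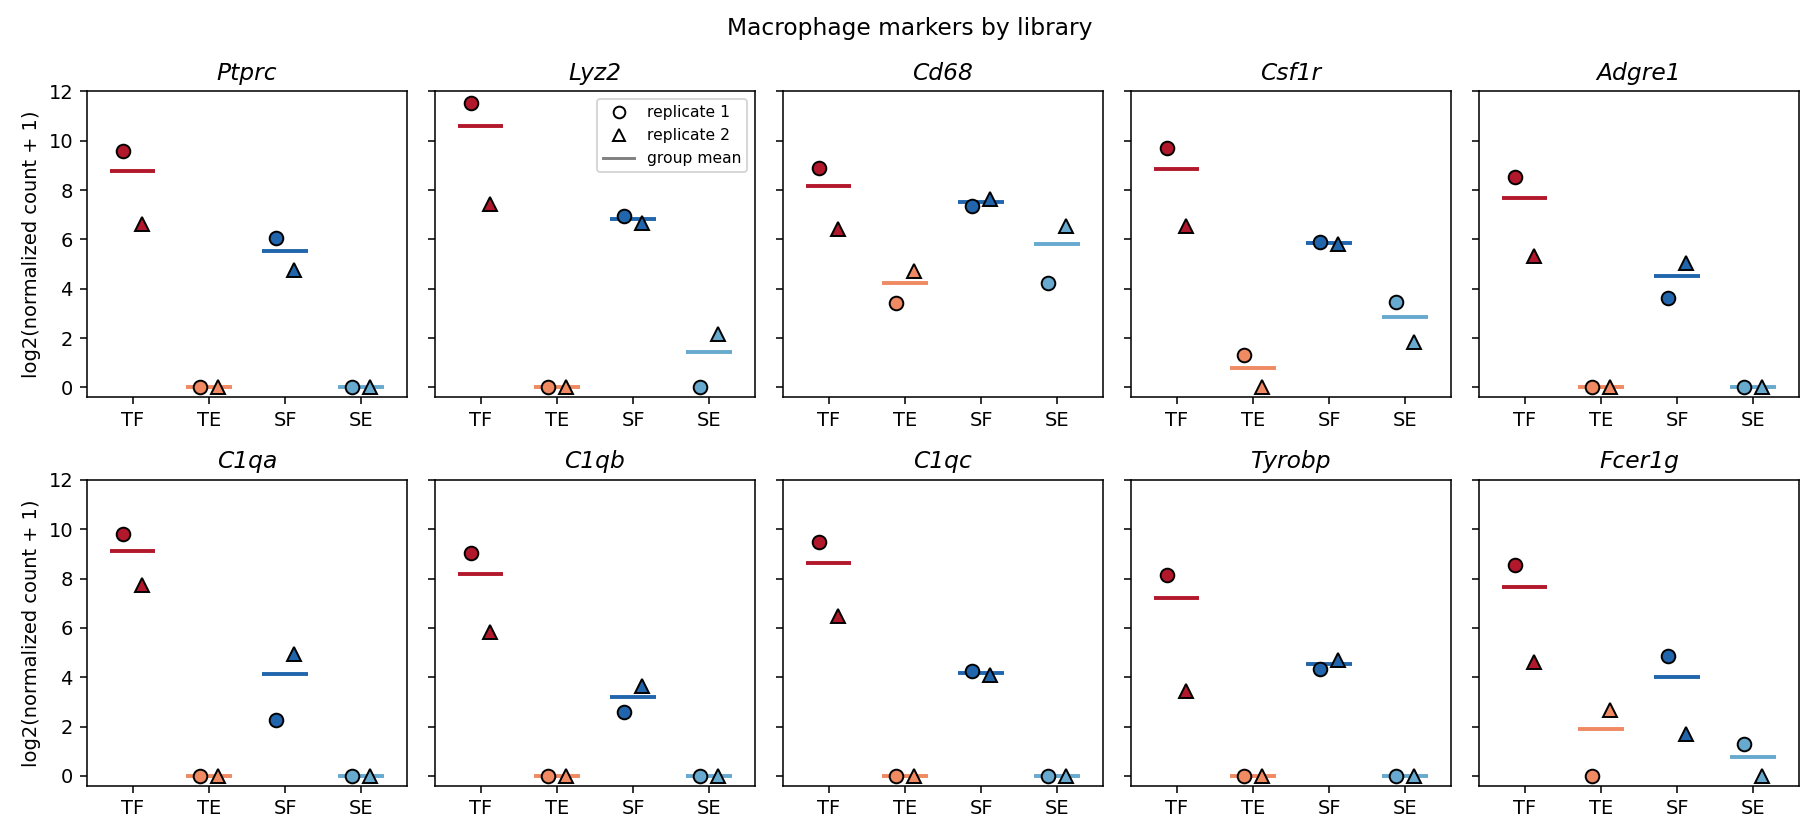
Each panel plots 1 macrophage marker as log2(normalized count + 1) in the 8 libraries, with circles for replicate 1, triangles for replicate 2 and lines at the log2 value of the group mean. In every panel the TF1 circle is the highest point, and for 6 of the 10 markers all 4 cultured libraries sit at 0.

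Ptprc, the gene of the gated protein CD45, was counted 595 times in TF1 and 80 times in TF2, 51 and 23 times in SF, and 0 times in each cultured library. As normalized counts this gave 435.5 ± 477 in TF and 45.6 ± 27.4 in SF (mean ± SD, n = 2). The spread between the TF replicates was thus larger than their mean. Csf1r, the receptor for the growth factors CSF1 and IL34, followed the same order, with 840.0 and 92.3 normalized counts in TF, 58.6 and 55.9 in SF, 10.01 and 2.57 in SE, and 1.50 and 0 in TE. Adgre1, which encodes the surface antigen F4/80, had 370.0 and 39.4 in TF, 11.5 and 31.9 in SF, and 0 in culture. For each of these 3 surface proteins TF2 exceeded both SF libraries.

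Among the lysosomal markers, Lyz2, the lysozyme of macrophages and granulocytes, had 2931 and 171.1 normalized counts in TF, 122.3 and 101.5 in SF, 0 and 0 in TE, and 0 and 3.43 in SE. It lies next to Lyz1, a near-identical copy, and reads shared by the copies could have been split between them. Lyz1 had 141 and 97.1 normalized counts in TF, 2.55 and 3.46 in SF, and at most 1.43 in culture, so TF1 and TF2 differed far less for Lyz1 than for Lyz2. Cd68, a glycoprotein of the lysosomal membrane, was the exception among the 10. It had 481.7 and 83.7 in TF, 161.8 and 200.7 in SF, 9.73 and 25.4 in TE, and 17.9 and 91.8 in SE. It was present in every cultured library, and TF2 lay below both SF libraries and below SE2.

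The 3 chains of C1q are encoded side by side on the minus strand of chromosome 4 (GRCm38), C1qb at 136880129 to 136886187, C1qc at 136889804 to 136893065 and C1qa at 136895917 to 136898803. C1qa had 891.9 and 215.3 normalized counts in TF and 3.82 and 29.7 in SF. C1qb had 521.9 and 56.6 in TF and 5.10 and 11.4 in SF, and C1qc 707.6 and 87.4 in TF and 17.8 and 16.0 in SF. None of the 3 had a count in culture. The TF and SF libraries did not overlap for any of them. In SF1, C1qa and C1qb were at 3 and 4 counts, close to the limit of detection.

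The adaptors differed widely between the TF replicates. Tyrobp had 285.6 and 9.84 normalized counts in TF, 19.1 and 25.1 in SF, and 0 in culture, so TF2, with 8 counts, lay below both SF libraries. Fcer1g had 375.2 and 23.4 in TF, 28.0 and 2.28 in SF, 0 and 5.40 in TE, and 1.43 and 0 in SE, and TF2 lay between the SF replicates.

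Levels of different genes were compared per kilobase of transcript. In TF1, Lyz2 was highest at 2227 normalized counts per kb, followed by C1qa at 857.6, C1qc at 588.2, Fcer1g at 556.7, Tyrobp at 506.4, C1qb at 479.7 and Cd68 at 391.6, and Csf1r at 178.7, Ptprc at 164.3 and Adgre1 at 114.3 came last. In TF2, C1qa was highest at 207.0 and Lyz2 came second at 130.02 normalized counts per kb. In both SF libraries the highest per kb was Cd68, at 131.5 and 163.2. The order of the markers thus differed between the replicates of TF as well as between TF and SF.

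The replicates of TF differed by more than other genes of their level. TF1 exceeded TF2 for all 10 markers, by 4.14-fold for C1qa (95% counting interval 3.50 to 4.92), 5.76-fold for Cd68 (4.44 to 7.57), 7.85-fold for Ptprc (6.21 to 10.04) and 29.0-fold for Tyrobp (14.5 to 68.1). The other 6 lay between 8.10-fold (C1qc) and 17.1-fold (Lyz2). Among the 7715 genes with a TF mean between the lowest and the highest of the markers, the median ratio of TF1 to TF2 was 1.01, the central 90 percent lay between 0.622 and 1.99, and 1.85% exceeded 4. The counting intervals exclude a ratio of 1 for each marker, and they cover counting error only. The ratios also differed among the markers beyond counting error, as those of C1qa and Tyrobp show.

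In SF the same ratios went in both directions. SF1 exceeded SF2 for 5 of the 10 markers, with 12.3-fold for Fcer1g (3.02 to 107.8, on 22 and 2 counts) and 2.48-fold for Ptprc (1.49 to 4.25). It was lower for Adgre1, at 0.359-fold (0.149 to 0.783), and for C1qa, at 0.129-fold (0.0250 to 0.421). For the remaining 6 the counting interval included 1. The median ratio over 7941 genes of like level was 1.56, and 22.4% of these genes exceeded 4. Large ratios of SF1 to SF2 were thus common at this level. The 5th percentile of these genes was 0.425, and the ratios of Adgre1 and C1qa lay below it. The summed level of the markers in SF1 was 1.06 times that in SF2, whereas in TF1 it was 9.02 times that in TF2. In the cultured groups only Cd68 and, in SE, Csf1r had enough counts for a ratio. Cd68 was 0.383-fold (0.185 to 0.747) in TE1 against TE2 and 0.195-fold (0.121 to 0.303) in SE1 against SE2. Among genes of like level the 5th percentile was 0.0764 in TE and 0.0715 in SE, so both Cd68 ratios lay above it.

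**Figure D2:**
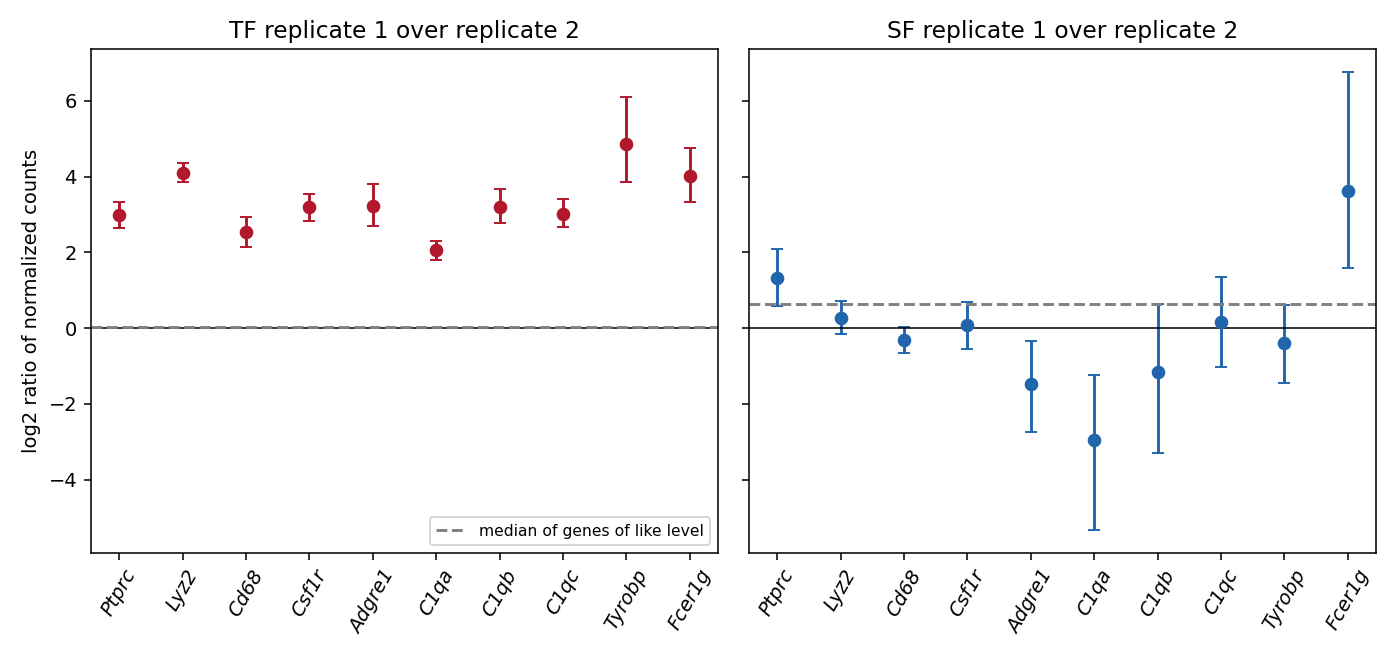
The log2 ratio of replicate 1 to replicate 2 in normalized counts is plotted for each marker in TF (left) and SF (right), with bars for the 95% counting interval and a dashed line at the median of genes of like level (a ratio of 1.01 in TF and 1.56 in SF). All 10 markers lie above 0 in TF, and in SF they scatter on both sides of it.

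The make-up of the marker counts differed between libraries as well. Lyz2 took 35.8% of the summed marker counts in TF1 (95% Wilson interval 34.7 to 37.0) and 19.5% in TF2 (16.8 to 22.6). C1qa took 10.9% in TF1 (10.2 to 11.7) and 24.5% in TF2 (21.5 to 27.8). In SF the largest share was that of Cd68, with 32.8% (28.3 to 37.6) and 40.1% (35.6 to 44.7), against 5.89% (5.34 to 6.50) and 9.54% (7.59 to 11.9) in TF. Within C1q, C1qa took 42.0% of the counts of the 3 chains in TF1 (39.7 to 44.5), 59.9% in TF2 (54.2 to 65.4) and 52.0% in SF2 (38.5 to 65.2). The TF1 and TF2 intervals did not overlap for these shares. SF1 had 21 counts of C1q in all.

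**Figure D3:**
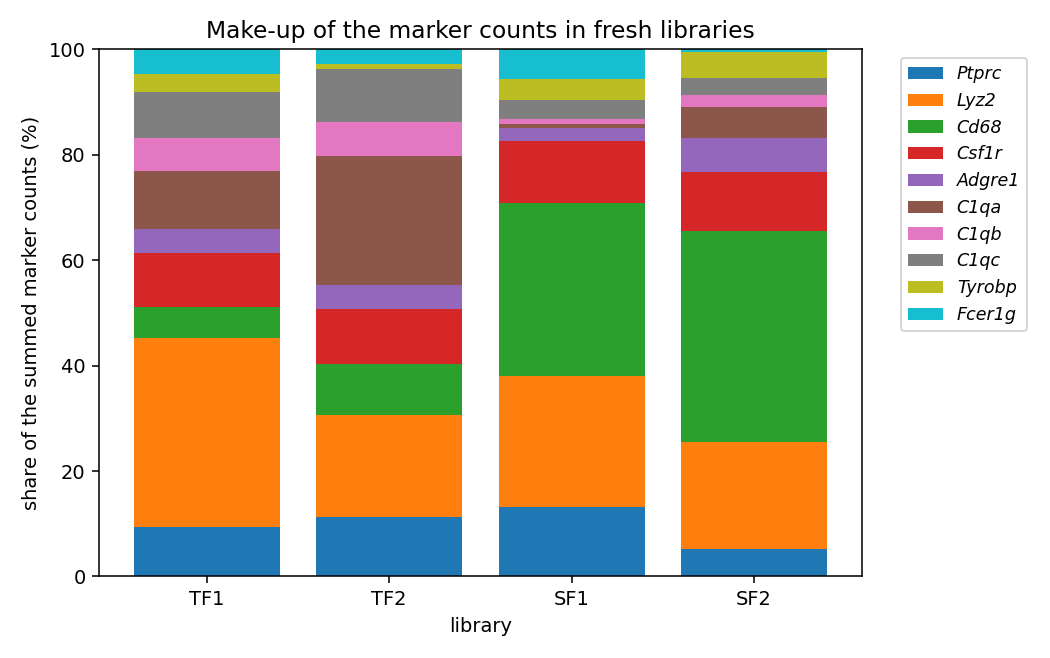
Stacked bars show the percentage of the summed counts of the 10 markers that each marker took in the 4 fresh libraries. Lyz2 is the largest block in TF1 (35.8%), C1qa in TF2 (24.5%) and Cd68 in SF1 and SF2 (32.8% and 40.1%).

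Expansion was examined by comparing TE with TF. All 10 markers were lower in TE, and for each of them both TE libraries lay below both TF libraries. By edgeR's quasi-likelihood test with Benjamini-Hochberg adjustment over 17582 genes, at an adjusted p below 0.05 and a level more than 25% higher in one group than in the other, all 10 fell, against 16.2% of the genes tested that fell by this rule and 39.2% whose libraries did not overlap in this direction. For the 7 markers without a count in TE, TE was at least 680-fold lower for Lyz2, 243-fold for C1qa, 191-fold for Ptprc, 174-fold for C1qc, 127-fold for C1qb, 89.8-fold for Adgre1 and 64.8-fold for Tyrobp, with the bound set at 3 counts per library. These bounds take the mean of TF and so rest largely on TF1. From TF2 alone they were 75.1-fold for Lyz2, 94.5 for C1qa, 43.2 for Ptprc, 38.3 for C1qc, 24.8 for C1qb, 17.3 for Adgre1 and 4.32 for Tyrobp. For Csf1r, with 722 counts in TF and 2 in TE, the ratio was 600 (95% counting interval 166 to 4967). Cd68 fell by 3.94 on the log2 scale (SE 1.02, adjusted p = 0.0191) and Fcer1g fell by 6.10 (SE 1.93, adjusted p = 0.0436), and the adjusted p of the others lay between 0.00151 (Csf1r) and 0.0169 (Tyrobp). Leaving out TF1 kept the direction for all 10, and 5 of them (Ptprc, Lyz2, Csf1r, C1qa and C1qc) then passed. The markers without a count in culture could pass the filter on low counts only through the fresh libraries, so these counts of markers are a description.

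The same comparison in satellite cells started from lower levels. On normalized counts all 10 markers were lower in both SE libraries than in both SF libraries, as were 42.2% of the genes tested. For Fcer1g the separation lay between 2 counts in SF2 and 2 in SE1. Both are under the limit of detection and differ only by scaling. C1qa in SF1, at 3 counts, was at that limit. By the same test 7 markers fell, against 19.8% of the genes tested. SE was at least 19.3-fold lower for Ptprc (adjusted p = 0.00838), 9.36-fold for Tyrobp (0.0371), 9.19-fold for Adgre1 (0.0214), 7.16-fold for C1qc (0.0185), 7.09-fold for C1qa (0.0240) and 3.50-fold for C1qb (0.0472). From the lower SF library alone the bounds were 11.1 for Ptprc and 4.86 for Adgre1, and for C1qa and C1qb, with SF1 the lower, 1.62 and 2.16. Lyz2, with 4 counts in SE2, fell by 5.85 on the log2 scale (SE 1.56, adjusted p = 0.0168). The other 3 did not pass. Their values were a log2 fold change of -1.54 (SE 0.924, adjusted p = 0.203) for Cd68 and -2.94 (SE 1.06, adjusted p = 0.0505) for Csf1r, and for Fcer1g a ratio of SF to SE of 18.5 (95% counting interval 4.60 to 162, adjusted p = 0.142). Leaving out TF1, SF1 or SF2 left 3 markers past the test in each case. TF1 is in neither group of this comparison but is in the same fit, and leaving it out also changed which genes were tested. The cause was not tested.

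The effects of culture on the 2 cell sources could be compared for 4 markers, since the other 6 were at 0 in both cultured groups. Csf1r differed (adjusted p of the interaction = 0.0474), with the 722 counts in TF against 2 in TE set beside 95 in SF and 17 in SE, and 9.62% of the genes tested had, by this test, a log2 fold change of culture that was lower in the teratoma-derived cells than in the satellite cells. Without TF1 the adjusted p was 0.334. For Cd68 the difference was -2.41 on the log2 scale (SE 1.31, adjusted p = 0.265), and Lyz2 (adjusted p = 0.277) and Fcer1g (adjusted p = 0.716) did not pass. Between the cultured groups, TE and SE, none of the 10 markers passed, 0 had an unadjusted p under 0.05 by edgeR or passed by DESeq2, and 7.21% of the genes tested were called. Cd68 was at 17.6 ± 11.1 normalized counts in TE and 54.9 ± 52.3 in SE (mean ± SD, n = 2), a log2 difference of -1.61 (SE 0.960, adjusted p = 0.407), and its libraries overlapped. Only Csf1r had both TE libraries below both SE libraries, as did 26.9% of the genes tested. Csf1r was at the limit of detection in TE and at 14 and 3 counts in SE (ratio of SE to TE 8.73, 95% counting interval 2.07 to 77.9, adjusted p = 0.333).

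The freshly isolated cells were compared last. Both TF libraries exceeded both SF libraries for 7 of the 10 markers, as for 31% of the genes tested, and the libraries overlapped for Cd68, Tyrobp and Fcer1g. By edgeR's test 6 markers were higher in TF, against 15.1% of the genes tested. The C1q genes differed most, with log2 fold changes of TF over SF of 5.25 (SE 1.27, adjusted p = 0.0218) for C1qb, 5.16 (SE 1.07, adjusted p = 0.0124) for C1qa and 4.71 (SE 1.06, adjusted p = 0.0172) for C1qc. Lyz2 followed at 3.95 (SE 1.09, adjusted p = 0.0304), then Ptprc at 3.42 (SE 1.01, adjusted p = 0.0445) and Csf1r at 3.18 (SE 0.989, adjusted p = 0.0429). The values of the markers that did not pass were 3.89 for Fcer1g (adjusted p = 0.130), 3.37 for Adgre1 (0.0945), 2.89 for Tyrobp (0.211) and 0.80 for Cd68 (0.570). The median over the 10 markers was 3.66 and over all genes tested 0.08. These calls rested on TF1. With TF2 as the sole TF library 0 markers passed, the log2 fold changes of the C1q genes were 3.80 (C1qa), 2.91 (C1qb) and 2.53 (C1qc), those of Ptprc, Csf1r and Lyz2 were 1.29, 0.85 and 0.78, and those of Cd68 and Tyrobp changed sign, to -0.95 and -0.999. Without SF1 1 marker passed, and without SF2 2 markers passed. The comparisons with TF and with SF share libraries, so their calls are not independent.

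Other genes of macrophages and of the pathways of the markers were read from lists. Over all genes tested, 16.2% fell in TE, 19.8% fell in SE and 15.1% were higher in TF than in SF by the same test. In the other direction, of these 17582 genes 1733 rose in TE, 3677 rose in SE and 1606 were lower in TF than in SF. Of 40 other macrophage and monocyte genes, 38 were higher in TF1 than in TF2, 28 of them by more than 4-fold, and their summed level was 1221 and 235.5 CPM in TF, 381.8 and 294.3 in SF, and 25.6 to 54.0 in culture. Ctss, which encodes the lysosomal protease cathepsin S, had 1894 and 183 counts in TF, 4 and 363 in SF and 0 in all cultured libraries. Cd74, the invariant chain of MHC class II, had 1651 and 186 in TF and 137 and 237 in SF. In TE against TF 22 of the 35 genes of this list that were tested fell and 0 rose (median log2 fold change -6.43, against -0.18 over all genes tested), and in SE against SF 18 fell and 1, Laptm5, rose. Between TF and SF only 3 passed: Laptm5 and Mrc1, the mannose receptor, were higher in TF (log2 5.56 and 3.34, adjusted p = 0.00737 and 0.0217), and Irf8, a factor of monocyte development, was lower (-1.76, adjusted p = 0.0332). Laptm5 was counted 713 and 76 times in TF and 4 and 16 times in SF.

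The receptors and kinases that work with Tyrobp and Fcer1g formed a list of 25 genes. Of these, 24 were higher in TF1 than in TF2, and the sum was 301.6 and 40.5 CPM in TF, 66.2 and 43.3 in SF, 9.3 and 7.2 in TE, and 30.6 and 19.3 in SE. Syk, the kinase that both adaptors recruit, had 459 and 67 counts in TF and 67 and 140 in SF, and fell in TE (log2 fold change -4.19, adjusted p = 0.0118). Lyn, an Src-family kinase, fell in TE (log2 fold change -2.75, adjusted p = 0.0132). In SE it had 329.0 and 161.3 normalized counts against 129.9 and 124.3 in SF, and it did not pass the test between them. In TE against TF 11 of 21 tested fell (median log2 fold change -7.51), against 16.2% of all genes tested. In SE against SF 1 of them fell, Fgr, another Src-family kinase, against 19.8% of all genes tested. Lyn was higher in TF, at 561 and 139 counts, than in SF (log2 fold change 1.98, adjusted p = 0.0496).

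Csf1, which encodes a ligand of Csf1r, behaved unlike the receptor. Csf1 had 1799 and 1559 normalized counts in TF, 3020 and 3111 in TE, 3122 and 4781 in SF and 8059 and 3965 in SE. It was thus abundant in the cultures in which the receptor was at or near 0, and the SE and SF libraries overlapped. Its log2 fold change in TE against TF was 0.92 (adjusted p = 0.0629), and it was lower in TF than in SF (-1.08, adjusted p = 0.0382). A list of 8 genes held Csf1, Il34, Csf2 and the receptor genes Csf2ra, Csf2rb, Csf3r, Flt3 and Kit. Of these, 3 fell in TE against TF (Csf3r, Csf2rb and Kit) and 4 fell in SE against SF (those 3 and Csf2ra).

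The rest of the classical complement pathway was a mixed list. Its 12 genes summed to 1299 CPM in TF1 and 1403 in TF2, and 6 of them were higher in TF1, 4 by more than 4-fold, among them C5ar1 and C3ar1, the receptors of complement fragments on myeloid cells, with 144 and 1 and 298 and 18 counts. C1s1, a protease of the C1 complex, had 2289 and 2250 counts in TF and 1612 and 2663 in SF, Serping1, the C1 inhibitor, 4447 and 5099 in TF and 6622 and 10155 in SF, and C3, the central component, 2195 and 2293 in TF and 3423 and 8833 in SF. These abundant transcripts differed little between the TF replicates, and the C1q genes by 4.14-fold or more. In TE against TF 8 of the 12 fell and in SE against SF 9 fell. Between TF and SF 1 passed, C2, which was lower in TF (-2.39, adjusted p = 0.0429). The lysosomal genes that most cells use were as near to equal, at 3225 and 2713 CPM in TF. Of these, 10 of 14 were higher in TF than in SF, against 15.1% of all genes tested. They were led in significance by Npc2 (log2 1.49, adjusted p = 0.00130), a carrier of cholesterol. In TE against TF 8 fell and 0 rose, and in SE against SF 3 fell and 4 rose. Of all 17582 genes tested, 1733 rose in TE and 3677 rose in SE.

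Markers of other cells were read in the same way. Of the lists of other cell types, those with a higher sum in TF1 than in TF2 included erythroid genes (180 and 11.4 CPM), neutrophil genes (421.3 and 71.3), mast cell and basophil genes (22.0 and 4.93), epithelial genes (489.2 and 143.0), endothelial genes (468.0 and 208.0) and megakaryocyte genes (21.1 and 10.3). Some of these sums rested on few genes. Of the 6 megakaryocyte genes 4 were higher in TF1, chiefly Ppbp (136 and 4 counts), while Itga2b (14 and 73) and Gp9 (2 and 14) were lower. Of the 8 erythroid genes 4 were higher in TF1, and most of the sum there came from Hba-a1 and Hba-a2 (1219 and 715 counts). Of the erythroid genes, Hba-a1, an α-globin, had 1219 and 2 counts in TF and 513 and 1103 in SF, whereas the β-globins Hbb-bs and Hbb-bt had 0 counts in both TF libraries and 441 and 590 and 83 and 231 in SF. Of the neutrophil sum in TF, most came from Ltf (lactoferrin, also made by epithelial glands), with 3136 and 538 counts, while Ly6g, the defining marker of neutrophils, had 0 and 1. Ly6g was the exception in its list, since 13 of the 14 neutrophil genes were higher in TF1 than in TF2. Csf3r had 710 and 82 counts there and S100a9 had 408 and 7. Pecam1, which encodes the gated protein CD31, had 654 and 69 counts in TF, 642 and 1077 in SF, 8 and 6 in TE and 47 and 19 in SE. The genes of both proteins of the negative gate were thus higher in TF1 than in TF2.

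The sums of the next lists were lower in TF1 than in TF2. Myogenic genes summed to 2007 and 2589 CPM in TF1 and TF2, genes of fibro-adipogenic progenitors to 5252 and 6120, T and NK cell genes to 82.8 and 101.3 and B cell genes to 6.71 and 9.02. Most of the fibro-adipogenic sum in TF came from 1 gene, Col15a1, with 37589 and 47887 of the 62657 and 74530 counts. The T cell sum came mainly from Thy1, which other cells also use (804 and 904 counts in TF), and Cd3e, a defining marker, had 0 and 1. Lists of epithelial and neural genes were added after the values had been seen. Epithelial genes, higher in TF1 as given above, summed to 21.1 and 6.37 CPM in SF and at most 13.7 in culture, and neural genes to 406.7 and 404.8 in TF. The neural sum was 268.6 and 284.3 in SF and higher in culture, at 2663 and 2608 in TE and 1428 and 1739 in SE. Most of it in culture came from Nes, with 37654 and 36319 normalized counts in TE against 4083 and 3829 in TF. Sox2 and Map2 of the same list were lower in both TE libraries than in both TF libraries. The part that these other cell types, or the host, had in the marker levels was not tested.

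**Figure D4:**
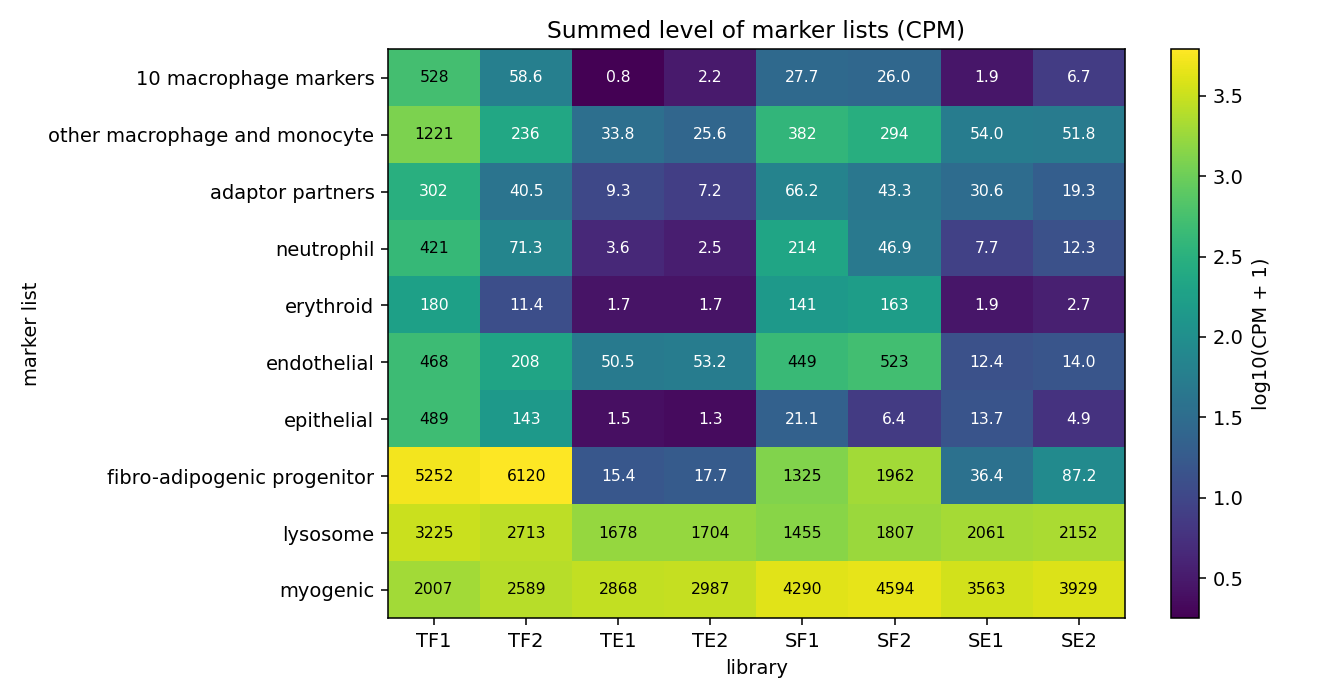
Each cell gives the summed CPM of a marker list in a library, with color on a log10 scale, for the 10 macrophage markers and 9 other lists (rows) in the 8 libraries (columns). The first rows drop from TF1 to TF2 (527.9 to 58.6 for the markers), and the fibro-adipogenic, lysosomal and myogenic rows do not drop in this way.

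The lists of other cell types were then read in culture, against 16.2% of all genes tested that fell in TE and 19.8% that fell in SE. In TE against TF 11 of 12 endothelial genes, 9 of 9 fibro-adipogenic genes, 4 of 7 erythroid, 5 of 10 neutrophil, 2 of 9 T and NK cell, 1 of 5 B cell, 1 of 4 mast cell and 1 of 5 megakaryocyte genes tested fell, and in SE against SF 11 of 12, 8 of 9, 7 of 7, 3 of 10, 4 of 9, 2 of 5, 0 of 4 and 0 of 5. No gene of these lists rose in either. The epithelial and neural lists were not counted in this way, and the neural sum was higher in culture, as given above. Of the 12 myogenic genes 4 rose and 5 fell in TE against TF, and 3 rose and 6 fell in SE against SF. Over all 17582 genes tested, 1733 rose in TE against TF and 3677 rose in SE against SF. Des, the muscle intermediate filament desmin, rose in both (log2 1.44 and 1.01, adjusted p = 0.00154 and 0.00600). Endothelial and fibro-adipogenic genes thus fell nearly throughout, the small T and NK cell, B cell, mast cell and megakaryocyte lists gave shares not far from those of all genes in TE, and myogenic genes went in both directions. Differences between lists were not tested.

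The genes whose profile over the 8 libraries lay nearest to the mean profile of the markers were sought among the 12670 genes whose mean reached 50 normalized counts, by the mean absolute difference of centered log2(normalized count + 1). The median distance over these genes was 2.78. Nearest was Foxa1, a transcription factor of endodermal epithelium, at 0.39, with 418.1 and 60.3 normalized counts in TF, 22.9 and 10.3 in SF and at most 1.43 in culture. The others were, in order, Pik3ap1, Cyth4, H2-Aa, Sox2, Clec7a, Enpp1, Mpeg1, Celsr1 and Kit, up to 0.69. The 10 held leukocyte genes (Pik3ap1 and Cyth4, of leukocyte signaling, H2-Aa, of MHC class II, Clec7a, the receptor dectin-1, and Mpeg1, perforin-2) and genes of other tissues (Foxa1, Sox2 and Celsr1). Enpp1, with 1541 and 1641 normalized counts in TF, was near in shape over the groups without the difference between the TF replicates. For Sox2, with 345.4 and 209.2 in TF, that difference was smaller than for any of the markers. The markers themselves lay between 0.27 (Adgre1) and 1.35 (Cd68) from their mean. The 8 points are libraries of 4 groups, so nearness describes these libraries.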

How the data were processed

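Libraries were prepared from total RNA with a stranded low-input kit that depletes ribosomal RNA. The deposited table holds estimated counts per gene symbol, not normalized, made by the authors. The submitters' processing notes name kallisto 0.44.0, CASAVA and the builds GRCm38 and mm10; how transcript estimates were summed to genes, and whether strand was used, is not given in the sources used here. Csf1r overlaps Hmgxb3 on the other strand. Counts were rounded to whole numbers, filtered with filterByExpr (17582 of 24980 genes kept, with all 10 markers), normalized by TMM and tested with edgeR 4.0.16 (quasi-likelihood, 1 fit over the 4 groups, no replicate term, R 4.3.3). Calls required a Benjamini-Hochberg adjusted p below 0.05 and a level more than 25% higher in one group, the thresholds of the study. With 2 libraries per group (common dispersion 0.233), each p-value sets a difference against a spread estimated over all 4 groups. That spread is the one between these samples only.

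Normalized counts used median-ratio size factors. A group whose libraries each had at most 3 counts was treated as at the limit, and bounds, 95% counting intervals and Wilson intervals cover counting error only. Totals ranged from 11930961 to 21146632. Alternatives were DESeq2 1.42.0, median-ratio scaling, no filter, glmTreat, a replicate term, only the groups compared, and each library left out; a lone library was assumed to vary like the other groups.

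The members and lists were chosen with earlier results of these data known. Named were all 10 markers, and of each list the genes with the highest mean (up to 4), its defining marker and the called genes of smallest adjusted p (up to 5), and the 10 genes nearest in profile. Genes outside this rule (Xist, Spi1, Lyz1, Laptm5, Mrc1, C2, C3ar1, C5ar1, Npc2 and Il34) and the epithelial and neural lists were chosen after their values were seen. Some genes named by the rule are not reported here. Trem2, Fcer1a, Csf3r and Pf4 each stand in more than 1 list. Coordinates came from GENCODE M21 and promoters from RefSeq (GRCm38.p6).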

Additional observations from a re-analysis of the deposited data

Results flagged for a closer look

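Csf1r responded differently to culture in teratoma-derived and satellite cells (adjusted p of the interaction = 0.0474, edgeR). It fell from 722 counts in TF to 2 in TE, with no library overlapping, and had 95 counts in SF and 17 in SE. The call was lost without TF1 (0.334), TE2 (0.0917), SF1 (0.0988), SF2 (0.0672) or SE1 (0.139), with median-ratio scaling (0.0548) and with glmTreat (0.0534), and DESeq2 gave 0.00419.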

How the results depend on the processing

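Besides leaving out libraries, 191 results kept their direction and their side of the threshold under an alternative, 12 passed it and 15 lost it, and 0 reversed. With each library left out, 242 were kept, 10 passed, 42 were lost and 5 reversed: TF over SF without TF1 for Cd68 (-0.95) and Tyrobp (-0.999), TE over SE without SE2 for Cd68 (0.0049), and the difference between the effects of culture for Fcer1g without TF1 (0.94) and without SE1 (0.68). None of these had passed the test. With each library left out these values ranged from -0.95 to 1.56 for Cd68 and -0.999 to 3.83 for Tyrobp (TF over SF), -2.45 to 0.0049 for Cd68 (TE over SE) and -6.80 to 0.94 for Fcer1g.

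With each library left out, the markers called ranged from 5 to 10 in TE against TF, 3 to 8 in SE against SF, 0 to 8 in TF against SF 0 to 2 for the interaction and 0 throughout in TE against SE, and the genes called from 2739 to 5439, 5543 to 7048, 2639 to 5072 and 1467 to 2996, and for TE against SE from 653 to 1698. Fitting only TF and SF called 3 markers between them. Without the filter, 1 marker (Csf1r, adjusted p = 0.0321) and 2260 genes were called between TE and SE and 3 markers for the interaction; median-ratio scaling and glmTreat called 0 for the interaction. DESeq2 called 2117 genes between TE and SE, against 1268. The cause was not tested.

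Replicate numbers showed no shared effect over genes (correlations of deviations between -0.026 and 0.076). This does not tell whether cultures were grown from the fresh samples of the same number. With the replicate block 9, 8, 4, 0 and 1 markers were called in TE against TF, SE against SF, TF against SF, TE against SE and the interaction. Median-ratio scaling shifted the median log2 fold change of all genes by -0.19 in SE against SF, -0.16 in TF against SF and 0.14 for the interaction, and the higher share of calls in TF against SF from 62.3% to 52.1% (48.3% by DESeq2). In SE against SF that share went from 51.4% to 40.1% by DESeq2, and for the interaction from 32.8% to 43.9%. No marker changed direction by scaling. The summed TF1 to TF2 ratio, 9.02, was 7.19 without Lyz2 and 8.26 with Lyz1 added. The C1qa and C1qc shares of C1q in TF1 were 44.5% and 30.5% per kb and 42.0% and 33.4% undivided.

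Having 2 libraries per group limits each comparison, and markers near 3 counts in SF1 or in culture allow bounds, not fold changes.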
